A study of Drosophila melanogaster with 16 samples.

Results

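The cytochrome P450 genes of Drosophila melanogaster were followed in the heads of male flies after 1 exposure to ethanol vapor. Members were taken by symbol: every gene whose single current symbol was Cyp followed by a digit, each represented by its probe set with the highest mean. This found 83 genes among 17104 features on the array. Of these, Cyp1 and Cyp40 are cyclophilins, peptidyl-prolyl isomerases that share only the letters of the name, which left 81 P450 genes. A feature was kept if 3 or more arrays of the 16 had it at log2 4 or higher. Of the 81 P450 genes 50 were kept and 31 were not, against 8110 of 17104 features of the whole series. The kept genes comprised 17 of 22 Cyp4 genes, 16 of 23 Cyp6 genes, 5 of 6 Cyp12 genes and 12 of 30 genes of other families.

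Flies of the Berlin strain, all males aged 2 to 4 days, made up each of the 3 groups. The first breathed ethanol vapor, a 60% dilution of the saturated vapor in moist air, for 30 min, the second humidified air alone for 30 min, and the third was left untreated. Exposed flies recovered for 0, 30, 60 or 90 min or for 120, 180 or 210 min, with 1 array for each exposure and time (7 ethanol, 7 air), and 2 arrays, A and B, held unexposed flies. Each exposed array was 1 pool of 3 groups of 200 flies joined before RNA extraction, so p-values measure the spread between these arrays and not that between pools of 1 time.

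Cytochromes P450 are heme enzymes that insert an atom of molecular oxygen into a substrate, with electrons from a reductase in the endoplasmic reticulum or from ferredoxin in mitochondria. Insect P450s are grouped into the CYP4, CYP3, CYP2 and mitochondrial clans. Members of the CYP3 clan, which holds the Cyp6 and Cyp9 genes, are best known for oxidizing plant toxins and insecticides, and many are inducible by foreign compounds. Genes of the CYP4 clan include oxidases of fatty acids and hydrocarbons, the CYP2 clan holds enzymes of ecdysone metabolism, and the mitochondrial clan holds both ecdysone enzymes and Cyp12 genes linked to insecticide tolerance. In heads they are expressed in fat body, sensory support cells and glia, among other cells. In bulk head RNA, fewer cells of a type and less RNA per cell cannot be told apart.

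4 arrays stood apart before any P450 was considered. The mean of male reproductive tract and gut transcripts, which a head should lack, was 3.40 log2 above the unexposed arrays in ethanol at 120 min and 5.99, 4.55 and 5.20 log2 above them in air at 0, 60 and 120 min. In every other exposed array it lay between 0.01 and 0.09. The mean was taken over kept genes only, 13 of 21 reproductive tract and 9 of 25 gut genes on the array. In each array outside the 4, 0 of the former list and 1 of the latter reached log2 4. Nearly all were thus kept only through the 4 arrays, and the mean describes these arrays without testing them. Photoreceptor genes were called in neither direction (6 of 6 on the array kept, summed log2 81.1 to 82.7 after ethanol, 80.7 to 82.3 after air and 81.3 to 81.7 unexposed). Antennal genes moved with ethanol: 12 of 13 fell over all times, with a summed log2 of 79.7 to 96.3 after ethanol, 100.6 to 116.9 after air and 111.5 to 112.4 unexposed, and all 13 reached log2 4 in some arrays. Of the tubule list 1 of 5 genes was kept and fell by 0.32, and of the fat body list 5 of 8 were kept and none was called (summed log2 54.7 to 57.8 after ethanol, 52.1 to 54.9 after air and 54.1 to 54.2 unexposed). Neither the part of these tissues in the P450 values nor that of the 4 arrays was tested as a cause, and results are also given without the 0, 60 and 120 min pairs.

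The family's median difference from air was positive when exposure ended and negative from 90 min on. The median P450 gene stood 0.20 log2 above air at the end of exposure, -0.003 and 0.02 at 30 and 60 min, and -0.12, -0.17, -0.34 and -0.25 at 90, 120, 180 and 210 min. Over all kept features the same medians were 0.15, -0.01, 0.01, -0.01, -0.03, -0.17 and 0.00. The surplus at 0 min and part of the deficit at 180 min were therefore shared with the array at large, whereas at 90, 120 and 210 min the median feature differed by less than 0.03. The number of P450 genes below air was 6, 25, 23, 36, 38, 41 and 38 of 50 across the times. Over all kept features it was 1783, 4227, 3898, 4225, 4700, 6207 and 4063 of 8110. Over all times the median P450 difference was -0.12 (-0.01 over all features), and it was -0.20 (-0.05) without the 0, 60 and 120 min pairs.

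**Figure D1:**
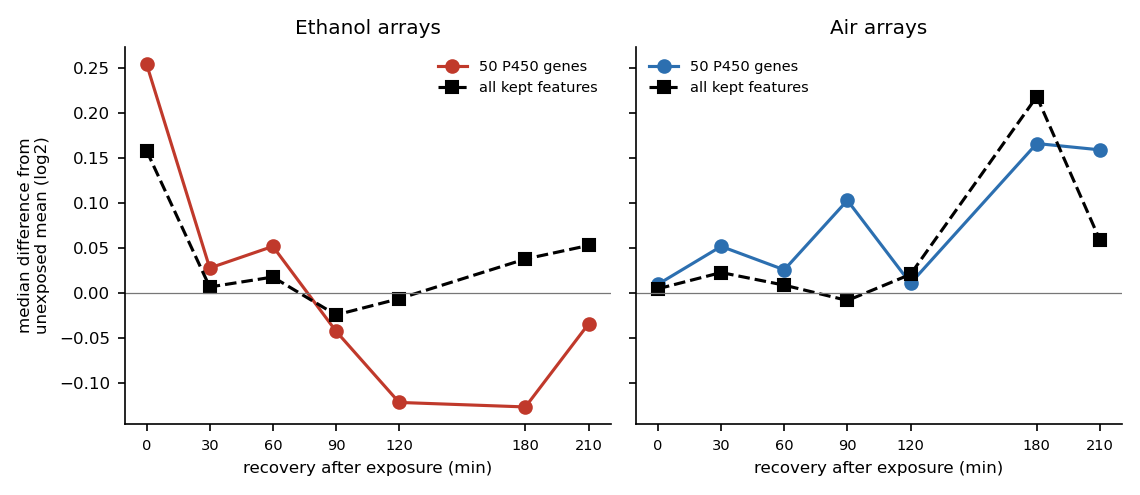
Median difference from the unexposed arrays in log2 (vertical axis) against minutes of recovery (horizontal axis) for the 50 kept P450 genes (coloured line) and for all kept features (dashed line), in ethanol arrays (left) and air arrays (right). In ethanol arrays the P450 median is 0.25 at 0 min and -0.13 at 180 min, and in air arrays it stays between 0.01 and 0.17.

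Set against unexposed heads, the 50 genes had medians of 0.25, 0.03, 0.05, -0.04, -0.12, -0.13 and -0.03 after ethanol, in time order. After air they had medians of 0.01, 0.05, 0.03, 0.10, 0.01, 0.17 and 0.16. All features had medians of 0.04 and 0.05 after ethanol at 180 and 210 min and of 0.22 and 0.06 after air. From 90 min on the P450 median was thus below unexposed heads after ethanol and above them after air, and at 180 min the air arrays were above them over all features too. Of the 50 genes 35 had their highest ethanol value at 0 min, against 42.9% of all kept features, and 21 had their lowest at 180 min, against 14.6%.

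**Figure D2:**
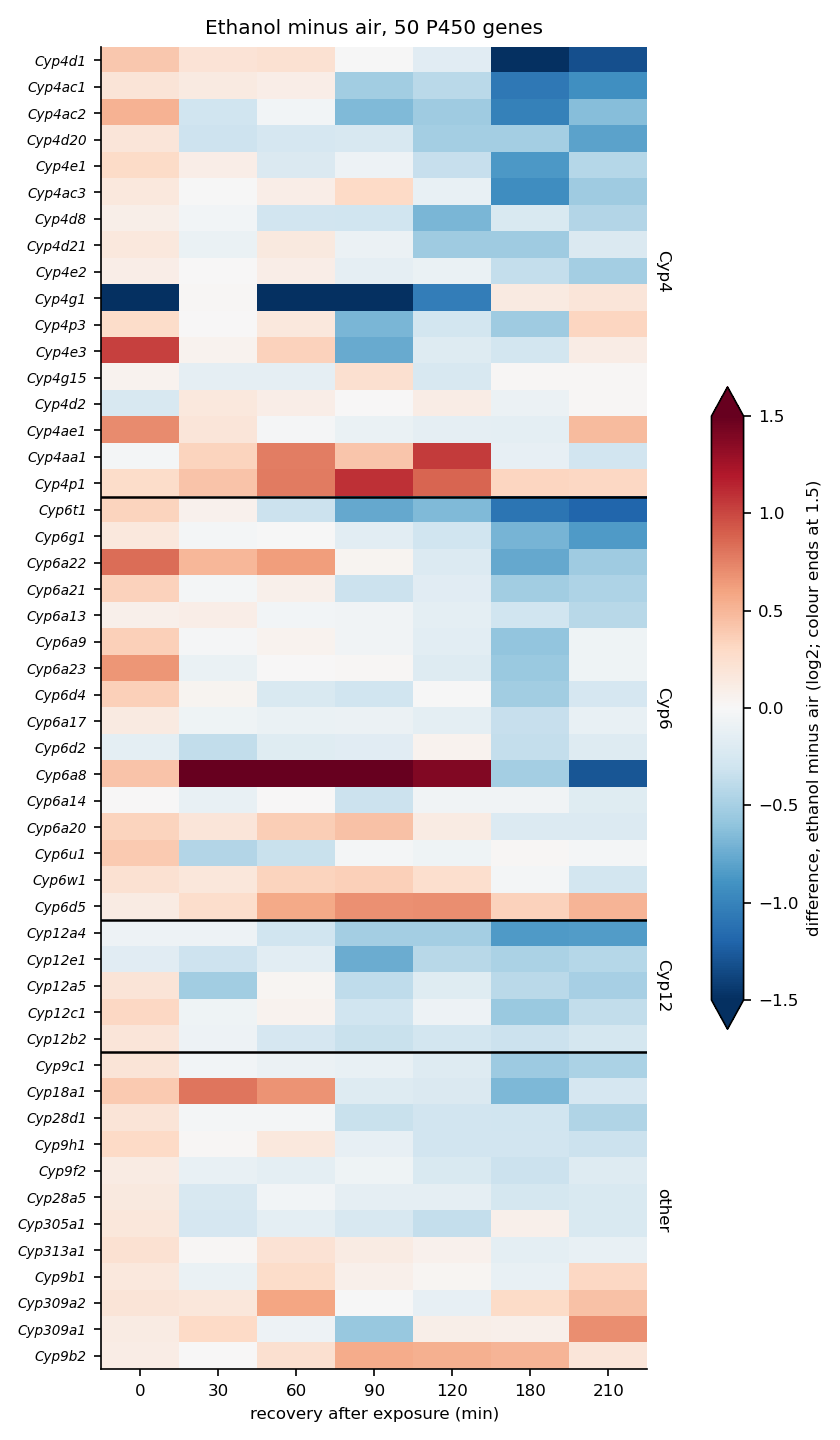
Ethanol minus air in log2 (colour) for each of the 50 kept P450 genes (rows, grouped as Cyp4, Cyp6, Cyp12 and other) at each recovery time (columns, in minutes). Most rows pass from values at or above air on the left to values below air on the right, and Cyp6d5, Cyp4p1 and Cyp9b2 lie above air at all 7 times, Cyp9b2 by less than 0.01 at 30 min.

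The falls that passed the test with time lay in the Cyp4, Cyp6 and Cyp12 families. In limma's fit of the ethanol minus air difference as a slope per hour, with recovery time pairing the arrays, 6 of 50 P450 genes fell and none rose at adjusted p below 0.05, against 0.604% of all kept features that fell and 0.074% that rose. Their slopes ran from -0.57 for Cyp4d1 to -0.24 log2 per hour for Cyp12a4. The median slope was -0.14 for the P450 genes and -0.05 for all features, against -0.08 and 0.01 with median scaling, -0.08 and -0.001 with quantile scaling, and -0.10 and -0.02 without the 0, 60 and 120 min pairs. Within the ethanol arrays alone, which are the same arrays, 5 P450 genes fell per hour and none rose (background 1.76% lower, 1.47% higher and 3.23% in either direction). In the air arrays alone none of the 50 changed (background 0% in either direction), with 6 of 50 at unadjusted p below 0.05 in limma, against 822 of 8110 features, and a median slope of 0.04, the same as over all features.

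These calls, like those over all features, depended on the setting and on single times. Of the 6, none was called with a body-tissue covariate, where adjusted p ran from 0.283 to 0.328, 2 were called with median scaling, quantile scaling or no pairing by time, and 1 without the filter on low values. The count of 6 was 0 on leaving out the 0, 30, 60, 90, 120 or 180 min pair and 2 on leaving out the 210 min pair, and 0 without the 0, 60 and 120 min pairs, where the 6 slopes still ran from -0.61 to -0.25. Over all 8110 features the slope calls numbered 55 in the main fit. They numbered 0 with the covariate, without the 0, 60 and 120 min pairs, or without the 0, 30, 60, 90 or 120 min pair. Without the 180 min pair there was 1 such call, and without the 210 min pair there were 69. Of the 5 falls in ethanol arrays, 1 remained without the 0 min array, 2 without that of 60 min, none without that of 30 or 180 min, and 4 without that of 120 min, which carried body-tissue transcripts. Without the 210 min array all 5 remained among 8 calls. All 6 slopes kept their negative sign in every setting run.

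**Figure D3:**
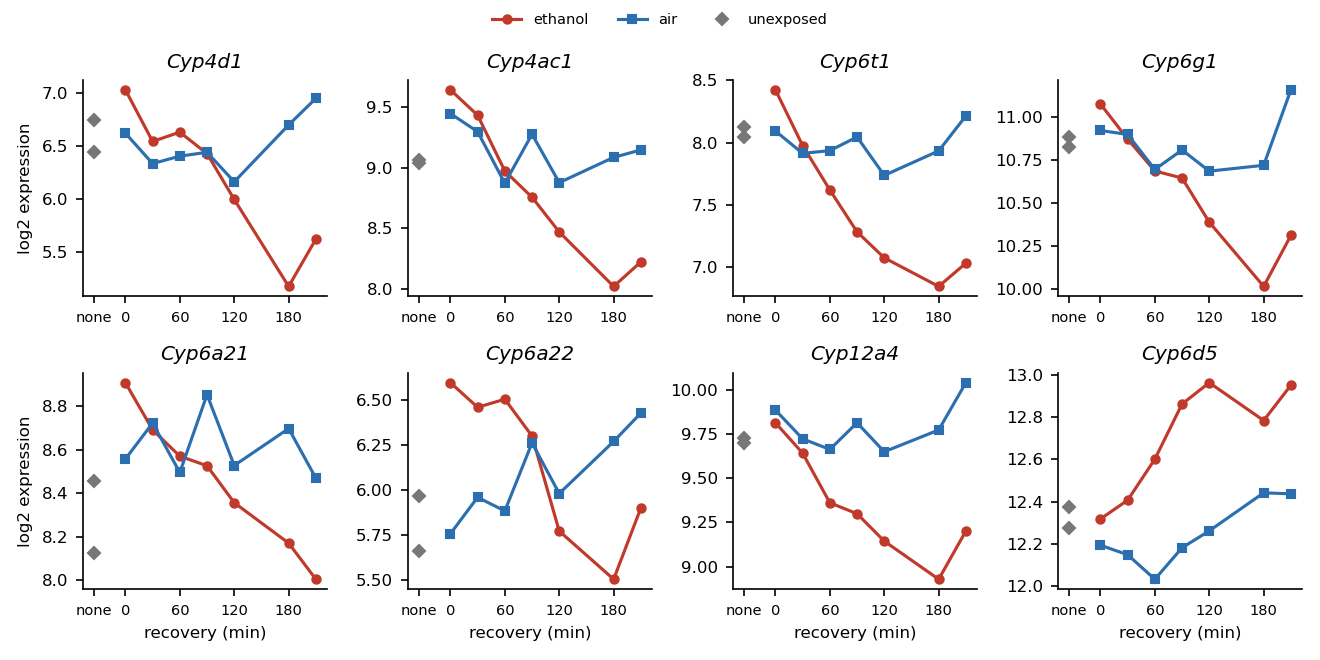
Deposited log2 value (vertical axis) against minutes of recovery (horizontal axis) of the P450 genes called in any fit, with ethanol, air and unexposed arrays as separate marks and 1 point per array. The ethanol line of Cyp4d1 meets the air line at 90 min, lies below it afterwards and reaches 5.18 at 180 min, while Cyp6d5 lies above air at 7 of 7 times.

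Among the Cyp4 genes, Cyp4d1 (chromosome X, 2159145 to 2162180, Release 6) had the steepest called slope. Its ethanol arrays read 7.03, 6.54, 6.63, 6.43, 5.998, 5.18 and 5.62 log2 in time order from 0 to 210 min, against 6.62, 6.33, 6.41, 6.44, 6.16, 6.70 and 6.95 in air and 6.45 and 6.75 unexposed. Ethanol was above air at 0, 30 and 60 min, nearly level with it at 90 min (-0.01), further below it from 120 min on and lowest at 180 min. The slope of the difference was -0.57 (SE 0.08, adjusted p = 0.0402) and that of the ethanol arrays alone -0.47 (SE 0.07, adjusted p = 0.0228). In the late window, the mean of the 120, 180 and 210 min pairs, the difference of -1.002 (SE 0.24, adjusted p = 0.151) was not called.

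Cyp4ac1, Cyp4ac2 and Cyp4ac3 lie side by side on chromosome 2L from 5264001 to 5270329. Cyp4ac1 read 9.65, 9.44, 8.97, 8.76, 8.47, 8.02 and 8.22 log2 after ethanol, against 9.45, 9.30, 8.87, 9.28, 8.88, 9.09 and 9.15 after air and 9.06 and 9.04 unexposed, a steady descent after ethanol to 180 min with all 3 late values below every air value. Its slope was -0.38 (SE 0.06, adjusted p = 0.0402) against air and -0.45 (SE 0.06, adjusted p = 0.0145) in ethanol arrays alone. Cyp4ac2 (-0.32, adjusted p = 0.15) and Cyp4ac3 (-0.27, adjusted p = 0.185) had slopes of the same sign that were not called, as were their late differences of -0.73 and -0.53. No function is given here for the Cyp4ac enzymes.

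Other Cyp4 genes had late differences of like size that were not called. Cyp4d20 read 8.99, 8.63, 8.49, 8.65, 8.28, 8.23 and 8.28 log2 after ethanol, against 8.81, 8.94, 8.75, 8.89, 8.78, 8.74 and 9.08 after air and 9.01 and 8.86 unexposed, with all 3 late ethanol values below every air and unexposed value. Its late difference was -0.60 (SE 0.12, adjusted p = 0.0886). Cyp4e1 read 6.83, 6.40, 6.23, 6.34, 6.21, 5.91 and 6.21 log2 after ethanol, against 6.54, 6.31, 6.44, 6.41, 6.55, 6.77 and 6.64 after air, above air at 0 and 30 min and below it at the 5 later times, with a late difference of -0.54 (SE 0.12, adjusted p = 0.117). Cyp4d8 had a late difference of -0.45 (SE 0.10, adjusted p = 0.128) and was below air at 6 of 7 times. Cyp4d2 (0.01) and Cyp4ae1 (0.14) were the kept P450 genes nearest to Cyp4d1 and had no called difference over all times.

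Cyp4d21, also called sxe1, is enriched in male heads, where its expression is tied to the sex of the fly and to mating. It read 12.95, 12.76, 12.65, 12.31, 11.98, 12.09 and 12.33 log2 after ethanol, against 12.79, 12.86, 12.50, 12.40, 12.52, 12.62 and 12.55 after air and 13.03 and 13.02 unexposed. All 7 ethanol values were below both unexposed values, and so were all 7 air values, and the difference from unexposed was -0.59 (SE 0.20, adjusted p = 0.228) after ethanol and -0.42 (SE 0.20, adjusted p = 0.772) after air. Against air its late difference was -0.43 (SE 0.10, adjusted p = 0.151). Cyp4e2, for which no role is given here, differed by -0.32 (SE 0.10, adjusted p = 0.277) in the late window and by -0.13 (SE 0.08, adjusted p = 0.602) over all times.

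Among the Cyp6 genes, Cyp6t1 (chromosome X, 21517434 to 21519218) was called in 3 fits over the same ethanol arrays. It read 8.42, 7.98, 7.62, 7.28, 7.07, 6.84 and 7.03 log2 after ethanol, against 8.09, 7.91, 7.93, 8.04, 7.74, 7.93 and 8.21 after air and 8.12 and 8.04 unexposed. The ethanol series began 0.33 above air and ended at -1.18 relative to it, and all late ethanol values lay below all air and unexposed values. Its slope of the difference was -0.43 (SE 0.06, adjusted p = 0.0361), its ethanol slope -0.41 (SE 0.07, adjusted p = 0.0331) and its late difference -0.98 (SE 0.14, adjusted p = 0.035).

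Cyp6g1 is the P450 whose overexpression gives resistance to DDT and several other insecticides. It read 11.07, 10.87, 10.69, 10.64, 10.39, 10.02 and 10.31 log2 after ethanol, against 10.92, 10.90, 10.69, 10.81, 10.68, 10.72 and 11.16 after air and 10.82 and 10.88 unexposed. Its slopes were -0.29 (SE 0.04, adjusted p = 0.0398) against air and -0.26 (SE 0.05, adjusted p = 0.0356) in ethanol arrays alone. The 3 late ethanol values were below all air and unexposed values, and the late difference of -0.61 (SE 0.12, adjusted p = 0.0899) was not called.

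Cyp6a21 and Cyp6a22 belong to a run of 7 kept Cyp6a genes on chromosome 2R between 14871366 and 14889010. Cyp6a22 read 6.598, 6.46, 6.51, 6.30, 5.77, 5.50 and 5.90 log2 after ethanol, against 5.76, 5.96, 5.88, 6.26, 5.98, 6.27 and 6.43 after air and 5.96 and 5.66 unexposed. Relative to air it stood at 0.84, 0.50, 0.62, 0.04, -0.21, -0.77 and -0.53 log2, above air through 90 min and below it from 120 min. Its slope of the difference was -0.45 (SE 0.06, adjusted p = 0.0398), with an uncalled ethanol slope of -0.29 (SE 0.07, adjusted p = 0.0619). Cyp6a21 read 8.91, 8.69, 8.57, 8.53, 8.36, 8.17 and 8.004 log2 after ethanol, against 8.56, 8.72, 8.49, 8.85, 8.53, 8.70 and 8.47 after air, and fell in the fit of the ethanol arrays, with a slope of -0.24 (SE 0.03, adjusted p = 0.0145). Its slope against air, -0.22 (SE 0.05, adjusted p = 0.112), was not called. In the run of 7 genes all late differences were negative, from -0.50 to -0.09, and all early ones positive, from 0.04 to 1.02, the highest being that of Cyp6a8. None of these differences was called. Late differences were negative in 41 of 50 P450 genes and 5607 of 8110 features. Early ones were positive in 38 of 50 and 5665 of 8110.

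Cyp6a20, a neighbour in that run, acts in support cells of olfactory sensilla and is linked to male aggression. It read 12.34, 12.37, 12.45, 12.56, 12.23, 11.91 and 12.03 log2 after ethanol, against 12.01, 12.19, 12.08, 12.12, 12.11, 12.11 and 12.23 after air and 12.17 and 12.02 unexposed. Ethanol exceeded every air value at 0, 30, 60 and 90 min and lay below every air value at 180 min. No fit called it, with 0.41 (SE 0.12, adjusted p = 0.278) in the middle window of the 60 and 90 min pairs. In the same ethanol arrays 12 of 13 antennal markers were lower than in air, and their part in its values was not tested.

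The Cyp12 enzymes are mitochondrial. Cyp12a4, whose overexpression is known to give resistance to the insecticide lufenuron, lies next to Cyp12a5 on chromosome 3R between 19132648 and 19137136. It read 9.81, 9.64, 9.36, 9.30, 9.14, 8.93 and 9.20 log2 after ethanol, against 9.89, 9.72, 9.66, 9.81, 9.65, 9.77 and 10.04 after air and 9.70 and 9.73 unexposed. It was below air at 7 of 7 times, with differences of -0.07, -0.08, -0.30, -0.51, -0.51, -0.84 and -0.84 in time order. The late difference was -0.73 (SE 0.10, adjusted p = 0.035), the slope of the difference -0.24 (SE 0.04, adjusted p = 0.0468) and the difference over all times -0.45 (SE 0.11, adjusted p = 0.142), which was not called.

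Cyp12e1 differed from Cyp12a4 in its course. It read 7.57, 7.51, 7.36, 7.17, 7.18, 7.32 and 7.34 log2 after ethanol, against 7.74, 7.82, 7.52, 7.91, 7.599, 7.80 and 7.76 after air and 7.86 and 7.82 unexposed, with every ethanol value below air at the same time and below both unexposed values. Over all times the difference from air was -0.38 (SE 0.07, adjusted p = 0.0726) and that from unexposed -0.49 (SE 0.11, adjusted p = 0.0583), neither called, with an uncalled slope of -0.07 (SE 0.06, adjusted p = 0.534). Its second probe set averaged 7.16 ± 0.33 after ethanol and 7.47 ± 0.19 after air (SD, n = 7 each), but there ethanol was above air at 0 min (7.67 against 7.31) and at 30 min (7.57 against 7.44). With median or quantile scaling Cyp12e1 was the P450 gene called over all times. The other 3 Cyp12 genes, Cyp12a5, Cyp12b2 and Cyp12c1, had late differences of -0.36, -0.28 and -0.34, none called.

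Few P450 genes were called higher after ethanol. Differences over all times were positive in 16 of 50 P450 genes, against 3661 of 8110 features. Over all times Cyp6d5 alone rose, 1 of 50 against a background of 0.419% higher, and none fell (0.271% lower, 0.691% in either direction). Cyp6d5 (chromosome 3R, 14029228 to 14031483) read 12.32, 12.41, 12.60, 12.86, 12.96, 12.78 and 12.95 log2 after ethanol, against 12.19, 12.15, 12.03, 12.18, 12.26, 12.44 and 12.44 after air and 12.38 and 12.27 unexposed. Ethanol was higher at 7 of 7 times, by 0.12, 0.26, 0.57, 0.68, 0.70, 0.34 and 0.51, and the fitted difference was 0.46 (SE 0.08, adjusted p = 0.0474). Against unexposed heads the difference was 0.37 (SE 0.16, adjusted p = 0.371) and the ethanol value at 0 min lay between the 2 unexposed ones. The call was lost on leaving out any pair but that of 0 min (adjusted p up to 0.167), without the 0, 60 and 120 min pairs (0.45, adjusted p = 0.293), and with median or quantile scaling (adjusted p = 0.0621 in both).

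Cyp4p1 and Cyp9b2 shared the direction of Cyp6d5 without a call. Cyp4p1, with a larger difference, read 10.91, 11.26, 11.52, 11.90, 11.79, 11.32 and 11.45 log2 after ethanol, against 10.64, 10.82, 10.75, 10.80, 10.91, 10.99 and 11.15 after air and 10.63 and 10.58 unexposed, highest at 90 and 120 min and above air and both unexposed arrays at all 7 times. It differed from air by 0.58 (SE 0.11, adjusted p = 0.0672) and from unexposed by 0.84 (SE 0.19, adjusted p = 0.0555). Cyp9b2 read 9.99, 9.78, 10.06, 10.39, 10.22, 10.26 and 10.33 log2 after ethanol, against 9.87, 9.78, 9.83, 9.83, 9.69, 9.75 and 10.14 after air and 9.75 and 9.71 unexposed, and differed from air by 0.31 (SE 0.08, adjusted p = 0.193). Their kept neighbours Cyp4p3 (-0.11) and Cyp9b1 (0.09), each on the same stretch of 2R, did not pass the test over all times.

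Cyp6a8 had a transient course. It encodes a P450 inducible by barbiturates and caffeine in flies. Its ethanol arrays read 9.22, 10.53, 11.23, 11.92, 11.01, 8.46 and 8.03 log2 at the 7 times, against 8.79, 8.91, 8.91, 9.72, 9.62, 8.97 and 9.31 in air and 8.48 and 8.44 unexposed. The ethanol value was highest at 90 min, 2.70 log2 above its own value at 0 min, and by 180 and 210 min it lay below air. The air series was also above unexposed throughout, most at 90 and 120 min.

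No fit called Cyp6a8: the middle window gave 2.26 (SE 0.58, adjusted p = 0.23), the comparison over all times 0.88 (SE 0.43, adjusted p = 0.453) and that with unexposed heads 1.60 (SE 0.76, adjusted p = 0.463). An ethanol value from 30 to 120 min that was at least 1 log2 above those of 0 and 210 min occurred in 2 of 50 P450 genes, Cyp6a8 and Cyp4g1 (Cyp4g1 in the 120 min array with body-tissue transcripts), and in 1.37% of all kept features. Cyp6a8 closes the run of Cyp6a genes on 2R, and none of its 6 kept neighbours had such a peak.

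**Figure D4:**
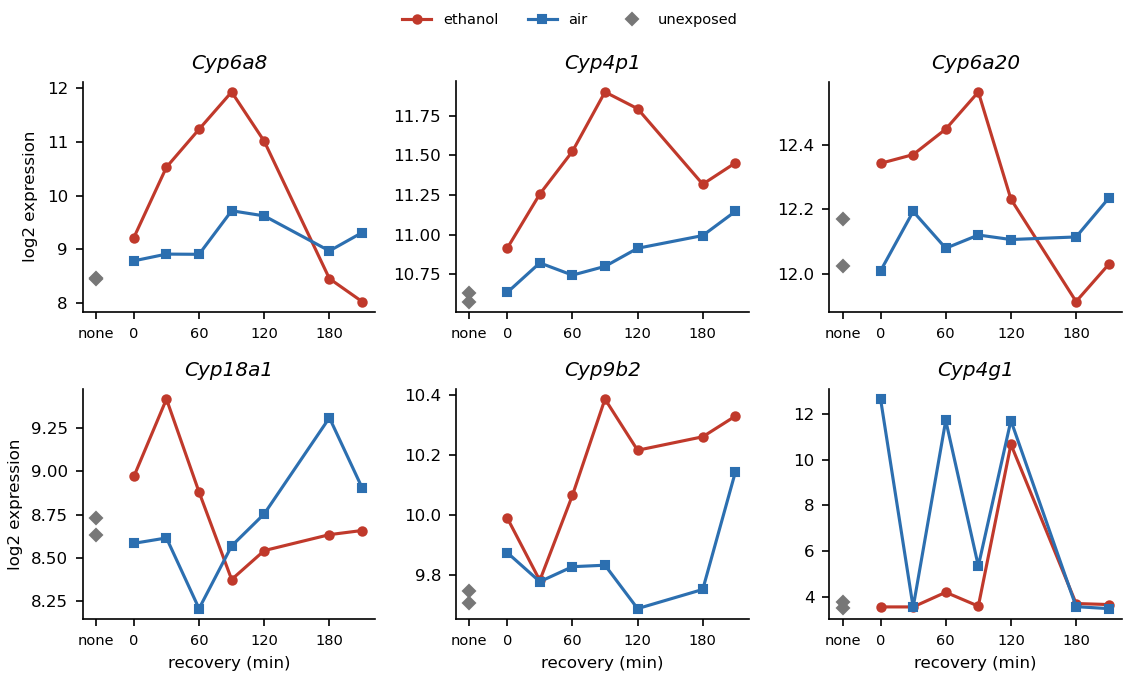
Deposited log2 value (vertical axis) against minutes of recovery (horizontal axis) for Cyp6a8, Cyp4p1, Cyp6a20, Cyp18a1, Cyp9b2 and Cyp4g1 in ethanol, air and unexposed arrays, 1 point per array. Cyp6a8 reaches 11.92 after ethanol at 90 min, against 9.72 in the air array of that time, and returns to 8.03 at 210 min.

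No P450 gene was called in the early window of the 0 and 30 min pairs (background 0.037% in either direction, limma) or in the middle window (background 0%), with 2 and 10 of 50 genes at unadjusted p below 0.05, against 501 and 846 of 8110 features. In the early window 38 of 50 P450 differences were positive, with a median of 0.10 against 0.07 over all features. In the middle window 30 of 50 were negative, with a median of -0.09 against -0.01.

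In the late window Cyp12a4 and Cyp6t1 fell and no P450 gene rose, 2 of 50 against a background of 0.543% lower and 0.949% in either direction. The difference was negative in 41 of 50 P450 genes and in 5607 of 8110 features, and 38 of 50 lay below the median of all features. The median was -0.27 for the P450 genes and -0.07 for all features. By family the median was -0.32 for Cyp4 (13 of 17 negative), -0.23 for Cyp6 (15 of 16), -0.36 for Cyp12 (5 of 5) and -0.19 for the rest (8 of 12). Both calls were lost on leaving out any pair but that of 120 min, while without the 0, 60 and 120 min pairs Cyp6t1 (-1.14, adjusted p = 0.0312), Cyp4ac1 and Cyp4d1 were called lower and Cyp12a4 (-0.84, adjusted p = 0.0661) was not.

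**Figure D5:**
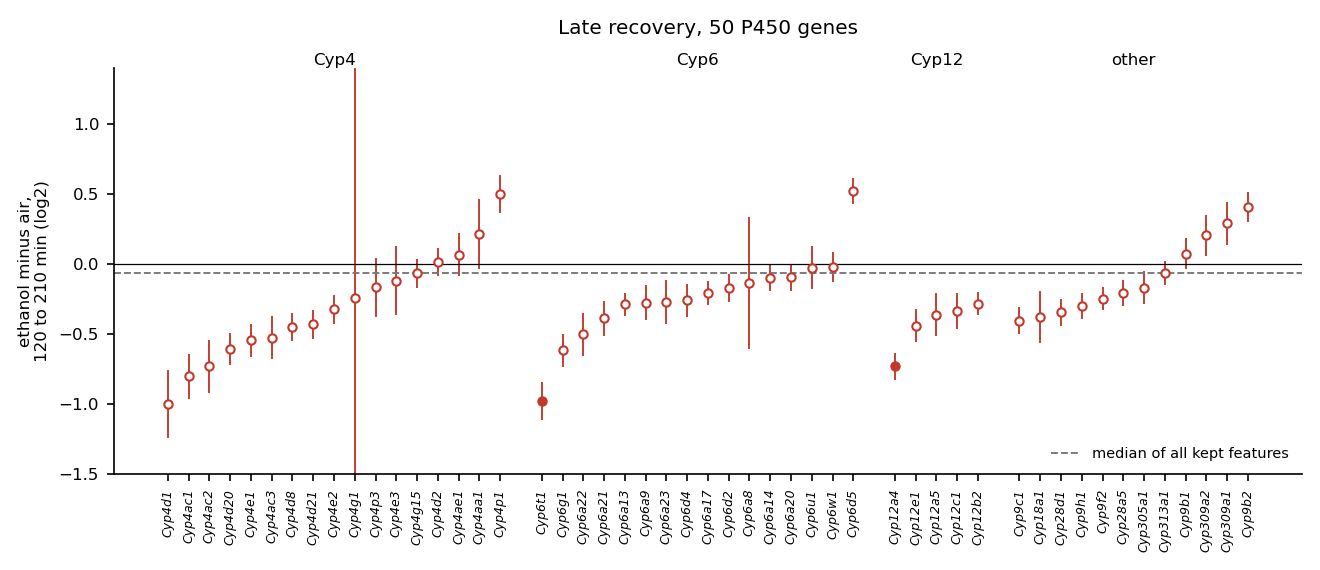
Late-window ethanol minus air difference in log2 (vertical axis) with its standard error (bars) for each kept P450 gene (horizontal axis), grouped by family, with called genes filled and the median of all kept features as a dashed line. 41 of 50 points lie below 0, and the bar of Cyp4g1 (SE 1.69) runs beyond the axis.

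The ethanol arrays of 180 and 210 min lay below all other ethanol arrays in 12 of 50 P450 genes, against 8.19% of all features, and above them in 1, Cyp309a1, against 12.1%. The 12 included Cyp4ac1, Cyp4ac3, Cyp4d1, Cyp6g1, Cyp6t1, Cyp6a20 and Cyp6a21, and also Cyp6a8, Cyp6a9, Cyp4aa1, Cyp4e2 and Cyp313a1. Cyp309a1 and its neighbour Cyp309a2 on 2L had positive late differences of 0.29 and 0.20, which were not called.

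Against unexposed heads no P450 gene was called after ethanol (background 0.715% in either direction and 0.481% higher; 8 of 50 at unadjusted p below 0.05 in limma, against 899 of 8110 features) or after air (background 0%; 2 of 50 at unadjusted p below 0.05, against 520 of 8110). Both comparisons share the 2 unexposed arrays. The median difference was 0.03 after ethanol (0.04 over all features) and 0.09 after air (0.05). All 7 ethanol values lay above both unexposed values in Cyp4p1, Cyp6w1 and Cyp9b2, 3 of 50 against 7.74% of features, and below them in Cyp12e1, Cyp4d21 and Cyp4d8, 3 of 50 against 2.19%. Between ethanol and air arrays no P450 gene was free of overlap, against 0.271% of features higher and 0.308% lower.

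Cyp4g1, the oenocyte enzyme that makes cuticular hydrocarbons, was high in the arrays with body-tissue transcripts. It read 3.57, 3.57, 4.21, 3.61, 10.67, 3.72 and 3.68 log2 after ethanol, against 12.65, 3.56, 11.71, 5.36, 11.71, 3.58 and 3.50 after air and 3.77 and 3.55 unexposed. The 4 highest values are those of the 4 such arrays. Elsewhere it was at or below 4.21, apart from 5.36 in air at 90 min. The difference over all times was -2.72 (SE 1.22, adjusted p = 0.414). It reached log2 4 in 6 arrays and would have failed the filter without the 4 such arrays. Cyp4g1 was the 1 P450 gene of 50 higher without overlap in the 3 such air arrays than in the other 4, against 1.68% of features. Because it was kept only through such arrays, this describes the values and tests nothing. In the same comparison 6 P450 genes were lower, against 3.12%: Cyp12a5, Cyp12e1, Cyp4e3, Cyp6a14, Cyp6a20 and Cyp6a23. Cyp4g15, a relative of Cyp4g1 known from the nervous system, stayed between 10.61 and 10.96 in all 16 arrays.

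Among the remaining families, Cyp18a1, which inactivates ecdysteroid hormones, read 8.97, 9.42, 8.88, 8.38, 8.54, 8.63 and 8.66 log2 after ethanol, against 8.58, 8.62, 8.21, 8.57, 8.75, 9.31 and 8.91 after air and 8.73 and 8.63 unexposed. Ethanol was higher at 0, 30 and 60 min and lower from 90 min, with an uncalled early difference of 0.59 (SE 0.23, adjusted p = 0.75) and slope of -0.35 (SE 0.10, adjusted p = 0.156). Its second probe set was likewise highest after ethanol at 30 min, at 7.91. Cyp28a5 averaged 10.52 ± 0.13 log2 after ethanol and 10.65 ± 0.09 after air (SD, n = 7 each), Cyp9f2 12.03 ± 0.08 log2 after ethanol and 12.16 ± 0.09 after air, Cyp305a1 9.20 ± 0.19 log2 after ethanol and 9.34 ± 0.15 after air and Cyp313a1 13.87 ± 0.12 log2 after ethanol and 13.82 ± 0.05 after air. Over all times their differences were -0.13, -0.13, -0.14 and 0.06, none called. Signals of different probe sets were not compared as levels.

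The Cyp9 and Cyp28 genes divided between the directions without a call. Cyp9c1 read 7.34, 7.11, 6.99, 7.01, 6.57, 6.55 and 6.90 log2 after ethanol, against 7.14, 7.15, 7.08, 7.12, 6.76, 7.09 and 7.37 after air, and its late difference was -0.40 (SE 0.10, adjusted p = 0.149). Cyp9h1 (-0.30) and Cyp28d1 (-0.34) also had negative late differences, while those of Cyp9b1 (0.07) and Cyp9b2 (0.41) were positive. By clan the late median was -0.28 for 18 kept genes of the CYP4 clan, -0.21 for 25 of the CYP3 clan and -0.36 for 5 of the mitochondrial clan, with -0.27 for the 2 kept genes of the CYP2 clan, Cyp18a1 and Cyp305a1.

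Position on the chromosome was shared by many members. Of the 81 P450 genes 33 lie on 2R, as do 23 of the 50 kept. Kept genes no more than 20 kb apart formed 9 runs. In 5 of them every late difference was negative: the Cyp4ac run on 2L, Cyp4e1 with Cyp4e2, Cyp6a13 with Cyp6a14, the 7 Cyp6a genes on 2R, and Cyp12a4 with Cyp12a5. Counted singly and not by run, 41 of the 50 kept P450 genes and 5607 of 8110 features had negative late differences. Whether neighbours moved together beyond that share was not tested. In the Cyp9b and Cyp309a pairs every late difference was positive, and the pair of Cyp4p1 (0.50) and Cyp4p3 (-0.17) was mixed. The run of Cyp4d1, Cyp4d2 and Cyp4ae1 on the X chromosome, from 2159145 to 2180998, spanned -1.002 for Cyp4d1 to 0.07 for Cyp4ae1, with 0.01 for Cyp4d2.

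Of the 31 P450 genes not kept, 29 stayed below log2 4 in all 16 arrays, and Cyp311a1 and Cyp312a1 passed it in 1 array each, at most at 4.27 and 4.39. Cyp6a2, a second insecticide-linked gene, was among the 29. Cyp12d1-p shares its probe set with Cyp12d1-d, and that probe set read 2.65 to 2.77 after ethanol and 2.60 to 3.89 after air. A probe set shared by shn and Cyp6v1 read 9.12 to 9.95 after ethanol and 9.35 to 9.67 after air. Neither shared probe set was assigned to a P450 gene.

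The ecdysone-synthesis P450 genes with other symbols (dib, phtm, sad, shd, spo and spok) are on the array, and none of the 6 was kept. Of the genes that serve P450s, no member of 3 lists was called in any fit. The share of all kept features called in either direction ran from 0 to 3.23% by fit. The electron carriers Cyt-b5, Cyt-b5-r, Fdx1 and Fdx2 differed from air over all times by 0.09, 0.13, -0.10 and -0.10. Of the 6 kept genes of heme synthesis, Alas, the first enzyme of the pathway, differed by 0.03 (SE 0.05, adjusted p = 0.864). Of the 7 kept regulators all late differences were negative and uncalled, with a median of -0.27. Late differences were also negative in 5607 of 8110 features, with a median of -0.07. Among the regulators the late difference was -0.15 for cnc, the fly Nrf factor that activates detoxification genes. It was -0.36 for the cnc inhibitor Keap1 and -0.13 for the xenobiotic receptor Hr96. The cyclophilins differed by -0.03 (Cyp1) and -0.10 (Cyp40) over all times, neither called.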

How the data were processed

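The deposited log2 values of 16 Affymetrix Drosophila 2.0 arrays were used; per the submitters' processing notes the authors used GCRMA, whose version was not stated. GCRMA equalizes the arrays, so a change in total RNA per head is not seen. The genome build behind the probe annotation is not given in the sources used here. Gene symbols came from the platform annotation, updated through Entrez IDs in a RefSeq table (Release 6): of 18769 without 183 controls, 13647 had 1 symbol, 402 several and 4720 none.

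All 8110 kept features were fitted with limma 3.58.1 (R 4.3.3) and called at Benjamini-Hochberg adjusted p below 0.05. Ethanol against air had recovery time as a factor; the pairing comes from the labelled times. The windows shared 1 residual spread, and unexposed arrays entered a fit of 3 groups over 16 arrays. The fits were tested on simulated data.

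Named genes were those called in any fit, the 2 largest differences over all times and the 2 highest unexposed means of each family, and a set of well-known P450 genes. Others were named to complete a count or a genomic run. Outside these rules, Cyp4d20, Cyp9c1, Cyp9h1 and Cyp28d1 were named for their late differences, and Cyp4g15 as a relative of Cyp4g1. Members and lists were chosen with earlier results of these data known. Alternatives were other filters, scalings, probe sets, variances and thresholds, a body-tissue covariate, no pairing and left-out times. The number of arrays limits the precision. Figures were drawn with matplotlib 3.10.9. The reductase Cpr and the gene dare were not analysed here.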

Additional observations from a re-analysis of the deposited data

Results flagged for a closer look

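In the main limma fit the slope of the ethanol minus air difference was called lower in 6 P450 genes, each at adjusted p below 0.05. Slopes per hour were -0.571 log2 for Cyp4d1, -0.452 for Cyp6a22, -0.428 for Cyp6t1, -0.383 for Cyp4ac1, -0.286 for Cyp6g1 and -0.244 for Cyp12a4. Over all kept features 0.604% were called lower. None of the 6 was called with a body-tissue covariate or without the 0, 60 and 120 min pairs. With median or quantile scaling 2 of the 6 were called. Leaving out any single pair but that of 210 min left none of them called.

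Among the genes named by rule, in 4 cases 1 array lay far from the other 6 of its group by Dixon's criterion. Cyp28a5 was high after ethanol at 0 min (10.817 log2), and Cyp4g1 was high after ethanol at 120 min (10.668), in an array with body-tissue transcripts. Cyp309a2 was low after air at 60 min (4.908), also an array with such transcripts, and Cyp9b2 was high after air at 210 min (10.143). Chance alone marks about 1 in 20 groups. Only the genes named by rule were examined, in the ethanol and the air group, so the 4 cases are not a count over all 50 kept genes.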

How the results depend on the processing

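No called P450 gene changed sign in its own fit under the alternatives run, nor did the P450 medians over all times and of the slope of the difference, whereas the median over all features crossed 0 for the slope with median scaling (0.006, against -0.051) and over all times without the 180 min pair (0.014, against -0.011). Window medians were not recomputed. The 0 counts of the early window, of air against unexposed and of the air slope stayed 0. The counts of P450 genes called moved as follows. Over all times (1 gene): 0 without a filter, with all probe sets, and without the 0, 60 and 120 min pairs; 2 with a log2 6 filter or trend and robust variances; 3 at adjusted p below 0.10; 3, all lower, with a body-tissue covariate; 0 to 1 on leaving out 1 pair. With median or quantile scaling or without the replicate block (arrays not paired by time) the count stayed 1, but the gene was Cyp12e1, lower. For the slope of the difference (6): 2 without a filter, with median or quantile scaling and with no replicate block; 0 with the covariate and without the 0, 60 and 120 min pairs; 0 to 2 on leaving out 1 pair. For the middle window (0): 2 with trend and robust variances. For the late window (2): 0 without a filter, 7 with trend and robust variances, 6 at adjusted p below 0.10, 6 with no replicate block, 0 to 3 on leaving out 1 pair. For ethanol against unexposed (0): 2 with a log2 6 filter, 1 with median scaling, quantile scaling, trend and robust variances or the covariate, 2 at adjusted p below 0.10. For the ethanol slope (5): 2 without a filter, 12 at adjusted p below 0.10, 0 to 8 on leaving out 1 array. Calls over all features moved as well on leaving out 1 pair or array. They went from 56 to between 8 and 104 over all times and from 55 to between 0 and 69 for the slope of the difference. For the late window they went from 77 to between 0 and 46, and for the ethanol slope from 262 to between 13 and 163. Apart from fewer samples or more features tested, the cause of these moves was not tested. With 1 array for each exposure and time, the spread between pools could not be measured, and genes below log2 4 carry no information on change.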
